A study of Mus musculus with 7 samples.

Results

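The genes described here are 41 skeletal muscle genes, chosen by name: 9 genes of muscle progenitors and myoblasts, 3 acetylcholine receptor subunits and 29 genes of the muscle fibre. Of the 25322 genes in the deposited table, 39 carry one of these names. Myh3 and Tnnc1, both counted among the fibre genes, were not analysed here, which leaves 27 fibre genes.

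On day 36, skin cells expressing tdTomato were sorted from mice and profiled by bulk RNA-seq, in 3 control and 4 Zfp750 knockout libraries (Zfp750_KO). Every mouse is given as carrying 1 copy of an inducible Cre under Lrig1, a stem cell gene of the upper hair follicle, written Lrig1-CreERT2 +/- or Lrig1-CreER +/-. All mice received 4-hydroxytamoxifen, which activates the Cre, on days 4 to 7 or days 5 to 8 after birth. The Zfp750 locus, written ZNF750 in the labels, is fl/fl in the 4 knockouts, wt/fl in 2 controls and wt/wt in 1 control. Rosa26 is +/- in all mice except 1 knockout, given as -/-, and no label ties a genotype to a column of the table. Libraries are called here by the names of their columns, which are 4F, 4M and 7F among the controls and 1M, 2M, 3F and 6F among the knockouts, and lists of values keep this order. The labels name no animals, so the p-values reflect the spread of these libraries, which may be technical.

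Skeletal muscle is maintained by satellite cells, which express the transcription factor Pax7. Once activated they become myoblasts under Myf5 and Myod1, and Myog then drives terminal differentiation. The membrane proteins Mymk and Mymx fuse myoblasts into fibres, where actin, myosin, titin and their partners form the sarcomere and a calcium release and uptake system governs contraction. Mouse skin carries a thin sheet of fast skeletal muscle, the panniculus carnosus, below the dermis.

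The first of the sequences below lies before the start of Myog, the progenitor gene with the largest fitted difference, and the other 3 lie before sarcomere genes that differ in how they varied over the controls. Each is the 250 bases before the start site in RefSeq (GRCm38.p6), written 5′ to 3′ on the gene's strand. Capitals mark the E-boxes CAGCTG and CACCTG, hexamers of the kind bound by the MyoD family, and the CArG box, a site bound by serum response factor.
Myog, chr1:134289754-134290003, plus strand: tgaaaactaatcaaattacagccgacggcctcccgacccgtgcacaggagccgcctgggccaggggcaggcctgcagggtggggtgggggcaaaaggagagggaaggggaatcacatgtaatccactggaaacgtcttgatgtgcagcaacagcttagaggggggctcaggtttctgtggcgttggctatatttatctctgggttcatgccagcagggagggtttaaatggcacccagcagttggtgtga
Actc1, chr2:114052876-114053125, minus strand: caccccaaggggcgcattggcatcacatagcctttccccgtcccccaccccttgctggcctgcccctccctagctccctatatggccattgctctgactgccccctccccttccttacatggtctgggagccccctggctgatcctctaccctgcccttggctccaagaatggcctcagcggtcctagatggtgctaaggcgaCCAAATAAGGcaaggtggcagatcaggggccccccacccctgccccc
Acta1, chr8:123894776-123895025, minus strand: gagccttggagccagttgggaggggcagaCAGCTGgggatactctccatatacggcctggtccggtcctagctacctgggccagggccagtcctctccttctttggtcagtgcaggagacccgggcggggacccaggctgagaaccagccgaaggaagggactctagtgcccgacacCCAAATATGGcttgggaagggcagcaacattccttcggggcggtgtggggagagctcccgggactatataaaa
Myh4, chr11:67237562-67237811, plus strand: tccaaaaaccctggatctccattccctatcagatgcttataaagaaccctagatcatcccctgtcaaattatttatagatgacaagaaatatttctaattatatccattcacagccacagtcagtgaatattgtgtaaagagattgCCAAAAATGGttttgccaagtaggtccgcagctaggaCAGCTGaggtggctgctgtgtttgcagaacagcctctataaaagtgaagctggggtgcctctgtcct

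The search covered both strands of these windows and also took in the MEF2 site, only as CTA, 4 letters A or T, and TAG. RefSeq windows were matched for 30 of the 41 genes, and the window that stands first for a gene in the RefSeq table was counted. CAGCTG was found in 12 of the 30, in 10 of 24 fibre genes and in 0 of 4 progenitor genes, against 13% of all 32851 windows. With every listed window of a gene counted, it was found in 13 of the 30 and in 11 fibre genes. CACCTG was found in 5 of the 30 against 17.2% of all windows, the CArG box in 3, namely Acta1, Actc1 and Myh4, against 1.47%, and the MEF2 site in 1, Ttn, against 0.508%. CAGCTG and the CArG box thus both occur in Acta1 and Myh4, the CArG box alone in Actc1, and none of the searched patterns in the Myog window. Sites that depart from these exact patterns were not searched for, so their absence is not shown. These are matches of letters and do not show binding.

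The libraries differed within both groups in ways that touch the muscle genes. The targeted gene Zfp750 (ENSMUSG00000039238, chromosome 11) had a normalized count of 335 in control 4F against 51.2 in 4M and 61.9 in 7F, and from 10.1 to 48.9 in Zfp750_KO. Its exact permutation p was 0.0571 (two-sided), the smallest that 35 assignments of 7 libraries can give. Ptprc, the leukocyte antigen CD45, was at 4.46 to 40.1 per M of its column total in 3 libraries, control 4F and Zfp750_KO 1M and 2M, called leukocyte-poor here. It was at 474 to 1247 per M in the other 4, called leukocyte-rich. All 21 macrophage and monocyte markers were above 0 in every library, and their sum was 169 to 5954 per M in controls and 339 to 10741 per M in Zfp750_KO. Keratinocyte markers summed to 355 to 3383 and 289 to 3049 per M. Fibroblast markers summed to 96015 to 184485 and 23457 to 135453 per M, so that keratinocyte markers made up far less of each library than fibroblast markers. Control 4M held Xist at 3318 together with the Y-linked Ddx3y at 810, whereas Xist was at most 6.24 in the other libraries with M in their names. The overlap counts, the level of control 4F beside the other controls, the limma fits and the class differences are therefore also given without control 4M, some of them by alternatives added after the data were seen. The libraries held 9.09 to 17.1 M reads, as far as the values let them be recovered.

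For most progenitor genes the 4 Zfp750_KO libraries all lay under the lowest control, while most fibre genes were highest in controls 4M and 7F. Control 4M and 7F were the highest 2 of the 7 libraries in 22 of 27 fibre genes, all but Actc1, Myh8, Tnnt1, Des and Neb, and in 3 of 9 progenitor genes. Every Zfp750_KO library lay below every control in 10 of the 39 genes, where 3.93% of all 25322 genes did so. These were 6 of the 9 progenitor genes (Pax7, Myod1, Myog, Megf10, Cdh15 and Mymk) and 4 of the 27 fibre genes (Actc1, Mylpf, Tnnt3 and Cacna1s). The libraries overlapped for the progenitor genes Myf5, Myf6 and Mymx. With control 4M left out, every Zfp750_KO library lay below both other controls in 11 of the 39, 7 progenitor and 4 fibre genes, where 5.74% of all genes did so. In 0 of the 39 did every Zfp750_KO library lie above every control, against 2.94% of all genes. In bulk libraries fewer muscle cells and less of these RNAs per cell cannot be told apart.

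The 9 progenitor genes had a mean level, as log2 of normalized count plus the pseudocount of 11.9, of 5.66 in control 4F, 5.67 in 4M and 5.72 in 7F. In Zfp750_KO it was 4.43 in 1M, 4.49 in 2M, 4.31 in 3F and 4.21 in 6F. The groups did not overlap, and the group difference of -1.32 stands beside a pooled SD over libraries of 0.10. For the 27 fibre genes the mean level was 5.19 in control 4F, 7.74 in 4M and 7.26 in 7F. In Zfp750_KO it was 4.69 in 1M, 4.57 in 2M, 5.57 in 3F and 5.25 in 6F. Control 4F lay below Zfp750_KO 3F and 6F on this scale, and the difference of -1.71 stands beside a pooled SD of 0.93.

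**Figure D1:**
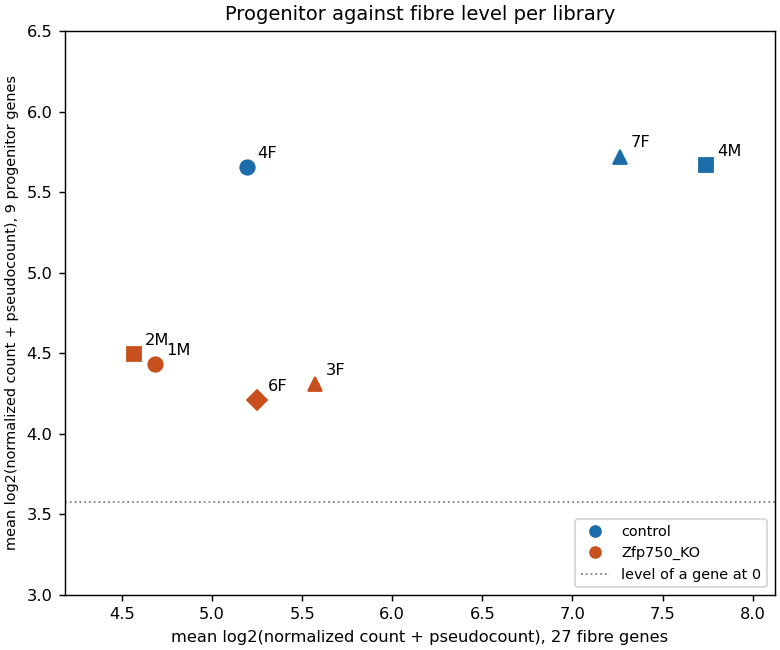
Mean log2 level of the 9 progenitor genes (vertical axis) against that of the 27 fibre genes (horizontal axis), 1 point per library, blue for control and orange for Zfp750_KO. The 3 controls share a progenitor level of 5.66 to 5.72 while their fibre level spans 5.19 to 7.74, and all 4 Zfp750_KO libraries lie lower on the vertical axis.

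The level of a gene in control 4F, as a percent of its mean in control 4M and 7F, had a median of 84.5% over the 9 progenitor genes (range 15% to 151%) and of 7.01% over the 27 fibre genes (0% to 118%). Both control 4M and 7F exceeded control 4F in 24 of 27 fibre genes and in 4 of 9 progenitor genes, where 41.5% of all genes did so. Without control 4M, control 4F stood at a median of 84.7% of control 7F over the 9 progenitor genes and of 9.10% over the 26 fibre genes above 0 in 7F. Control 7F alone exceeded 4F in 24 fibre and 6 progenitor genes, against 50.3% of all genes. Within Zfp750_KO, both 3F and 6F exceeded both 1M and 2M in 22 of 27 fibre genes and in 1 of 9 progenitor genes, against 34.2% of all genes. In both groups the libraries with more fibre RNA were those rich in leukocyte RNA, and the part of leukocyte content in this was not tested. Within Zfp750_KO sex coincides with leukocyte content. The Y-linked Ddx3y was at 0 in 3F and 6F and at 950 and 979 in 1M and 2M. The part of sex in this order was not tested either.

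Among the myogenic transcription factors, Pax7, Myod1 and Myog separated the groups in every library. Myog (ENSMUSG00000026459, chromosome 1) had normalized counts of 86.7, 113 and 102 in the controls. In Zfp750_KO it had 0, 1.93, 7.89 and 16.5. Its highest Zfp750_KO library therefore held less than its lowest control, and the means were 101 ± 13.2 (SD, n = 3) and 6.59 ± 7.43 (SD, n = 4), a ratio of 15.3. The Zfp750_KO values rest on 0, 2, 7 and 24 reads. A gene at 0 could still reach 3 reads, or 2.07 to 3.94 normalized counts depending on the library, and this covers counting error only.

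Pax7 (ENSMUSG00000028736, chromosome 4), the satellite cell factor, had 107, 70.9 and 72.0 in the controls and 27, 31.9, 18.0 and 17.2 in Zfp750_KO. The means were 83.2 ± 20.4 (SD, n = 3) and 23.5 ± 7.12 (SD, n = 4), so Pax7 stayed measurable in every Zfp750_KO library. Myod1 (chromosome 7), the myoblast determination factor, had 44.1, 53.8 and 50.6 in controls and 11.4, 5.8, 5.64 and 0 in Zfp750_KO. Its ratio of means was 8.66, between the 3.54 of Pax7 and the 15.3 of Myog. For these 3 genes the exact permutation p was 0.0571 each (two-sided), the smallest possible. Myf5, the earlier determination factor, had 14.7, 10.5 and 28.1 against 3.12, 7.73, 11.3 and 0, so that control 4M and Zfp750_KO 3F overlapped. Myf6, a factor of late differentiation, had at most 9.19 normalized counts in any library and did not reach the filter for the limma fits described below (exact permutation p = 0.286, two-sided).

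The surface proteins of progenitors also separated the groups. Cdh15 (chromosome 8), the M-cadherin of satellite cells and myoblasts, had 118, 73.5 and 82.1 in the controls and 15.6, 15.5, 10.1 and 25.5 in Zfp750_KO. Megf10 (chromosome 18), a transmembrane receptor of satellite cells, had 182, 160 and 242 in controls. In Zfp750_KO it had 83.2, 128, 24.8 and 22.0. Megf10 was thus lowest in the leukocyte-rich Zfp750_KO libraries, the opposite order to 22 of the 27 fibre genes.

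Mymk (chromosome 2), the fusion protein also called myomaker, had 14.7, 21.0 and 18.0 in controls and 2.08, 0.966, 0 and 0 in Zfp750_KO. These values are 19, 16 and 16 reads against 2, 1, 0 and 0. Its partner Mymx had 0 to 3 reads in every library, where no difference could be seen at this depth.

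**Figure D2:**
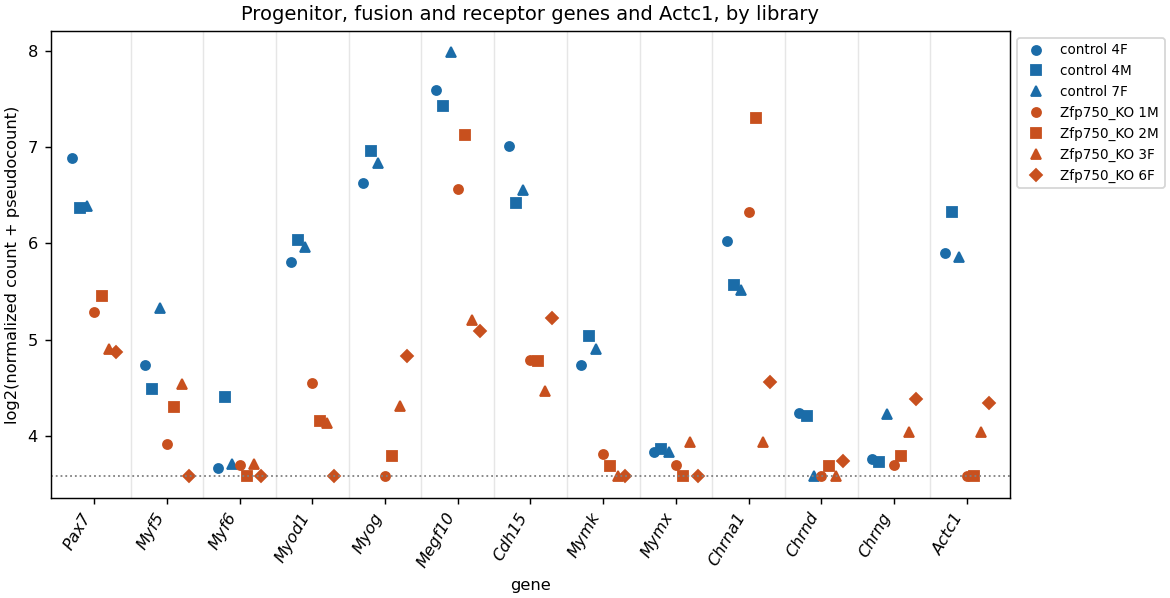
Progenitor genes, acetylcholine receptor subunits and Actc1, with log2 of normalized count plus the pseudocount on the vertical axis and 1 point per library, blue for control and orange for Zfp750_KO. Myog lies between 86.7 and 113 normalized counts in the controls and between 0 and 16.5 in Zfp750_KO, while Chrna1 overlaps between the groups.

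Of the acetylcholine receptor subunits Chrna1 alone reached the filter for limma, and its Zfp750_KO values lay on both sides of the controls. Chrna1 (chromosome 2), the alpha subunit of the muscle receptor, had 53.4, 35.4 and 33.7 in the controls and 68.6, 146, 3.38 and 11.7 in Zfp750_KO. It was thus above all controls in 1M and 2M and below all of them in 3F and 6F (exact permutation p = 0.914, two-sided). Chrng, the fetal gamma subunit, had 1.31 to 6.75 in controls and 1.04 to 8.95 in Zfp750_KO, and Chrnd, the delta subunit, 0 to 6.97 and 0 to 1.38. Their groups overlapped, and neither reached the filter for limma (exact permutation p = 0.743 for Chrng and 0.286 for Chrnd, two-sided).

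Actc1 (chromosome 2), the cardiac actin that is also made in developing and regenerating skeletal muscle, separated the groups in every library, unlike Acta1. Its normalized counts were 48.0, 68.3 and 46.1 in the controls and 0, 0, 4.51 and 8.26 in Zfp750_KO. Control 4F stood at 83.9% of the mean of 4M and 7F, and the ratio of group means was 17.0. Actc1 stood at 3.63, 5.72 and 4.11 per M in the controls. Of the 7 heart markers 5 are in the table, and they summed to 1.34 to 6.38 per M in controls and 1.32 to 8.18 per M in Zfp750_KO. The part of heart markers in the Actc1 values was not tested. Myh8, the perinatal myosin, had 0 to 7.38 normalized counts in controls and 0 to 4.77 in Zfp750_KO.

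Acta1 (ENSMUSG00000031972, chromosome 8), the actin of adult skeletal muscle, varied widely within both groups. It had 138, 3711 and 2316 in the controls, so that 4F was far below the other controls. In Zfp750_KO it had 56.1, 33.8, 313 and 163. Control 4F lay inside the Zfp750_KO range, and the means of 2055 ± 1801 (SD, n = 3) and 142 ± 128 (SD, n = 4) had SDs close to their own size. The exact permutation p was 0.171 (two-sided).

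The other general sarcomere and cytoskeleton genes differed among themselves. Ttn (chromosome 2), the giant spring protein titin, had 168, 3290 and 2754 in controls and 150, 142, 943 and 504 in Zfp750_KO. Neb, which sets thin filament length, had 42.6, 386 and 390 in controls and 42.6, 23.2, 497 and 303 in Zfp750_KO. Neb was thus above both leukocyte-rich controls in Zfp750_KO 3F and below both in 6F, whereas Acta1 and Ttn were below both in 3F and in 6F. Des, the intermediate filament desmin, had 795, 803 and 665 in controls and 509, 701, 214 and 271 in Zfp750_KO. Desmin is also made by smooth muscle and pericytes, and the 16 markers on that list, which includes Des, summed to 728 to 1524 per M in controls and 613 to 2687 per M in Zfp750_KO. The part of smooth muscle in the Des values was not tested.

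In all 10 fast fibre genes control 4M and 7F were the highest 2 of the 7 libraries, as for Acta1. Myh4 (chromosome 11), the myosin of the fastest fibres, had 13.2, 538 and 385 in the controls and 3.12, 1.93, 47.3 and 23.4 in Zfp750_KO. Myh1, another fast myosin, had 18.5, 352 and 190 against 15.6, 1.93, 27.9 and 25.5. Myh1, Myh2, Myh4 and Myh8 are neighbouring, closely similar genes on chromosome 11 and each held a fractional read count in at least 1 library, so the division of reads among them is uncertain. The alpha-actinin Actn3 had 28.6, 417 and 326 against 7.28, 6.76, 38.3 and 10.3, and the myosin light chain Myl1 had 10.1, 267 and 215 against 4.16, 0.966, 29.3 and 13.1. Unlike in Acta1, control 4F lay above every Zfp750_KO library for Mylpf, a regulatory light chain of myosin, at 19.4, and for the fast troponin Tnnt3, at 29.4. Tnnt3 also had 25.1 in Zfp750_KO 2M, above its 15.8 in 3F and 17.2 in 6F. Slow fibre troponins were low throughout: Tnni1 had 3.10 to 15.8 in controls and 4.13 to 11.6 in Zfp750_KO, and Tnnt1 had 0 to 2.63 and 1.93 to 8.95.

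In all 8 genes of excitation, calcium handling and energy supply control 4M and 7F were the highest 2 libraries, and in 6 of the 8 both Zfp750_KO 3F and 6F exceeded 1M and 2M. Atp2a1 (chromosome 7), the calcium pump SERCA1, had 81.3, 1581 and 1076 in controls and 24.7, 12.9, 123 and 84.4 in Zfp750_KO. Ryr1, the calcium release channel, had 44.1, 394 and 335 against 14.6, 7.73, 51.8 and 48.9. Control 4F again lay within the Zfp750_KO range for both. Pvalb, a calcium buffer of fast fibres, had 13.2, 431 and 241 against 3.12, 0, 29.3 and 13.8. Ckm, the muscle creatine kinase, had 52.2, 936 and 554 against 23.1, 21.3, 72.8 and 59.6. Atp2a1 and Ckm each gave whole reads in only 1 of 7 libraries, so the assignment of reads is uncertain for them too. Pygm, the muscle glycogen phosphorylase, had 105, 596 and 382 against 48.9, 54.1, 122 and 79.2. The exceptions within Zfp750_KO were the enolase Eno3, at 46.8, 47.3, 40.6 and 22.7, and myoglobin, Mb, which was higher in 1M than in 6F. Cacna1s, the voltage sensor of excitation, was the gene of this group whose libraries did not overlap, at 6.97, 103 and 130 against 2.08, 3.86, 5.64 and 3.97, and it did not reach the filter for limma. Its exact permutation p was 0.0571 (two-sided), the smallest possible, and with no filter on low values it fell by 2.18 (log2) in the limma fit with the macrophage score described below (adjusted p = 0.029). The lack of overlap rests on 9 reads in control 4F against 5 in Zfp750_KO 3F. Cacna1s gave whole reads in only 5 of 7 libraries, so its read assignment is uncertain as well.

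**Figure D3:**
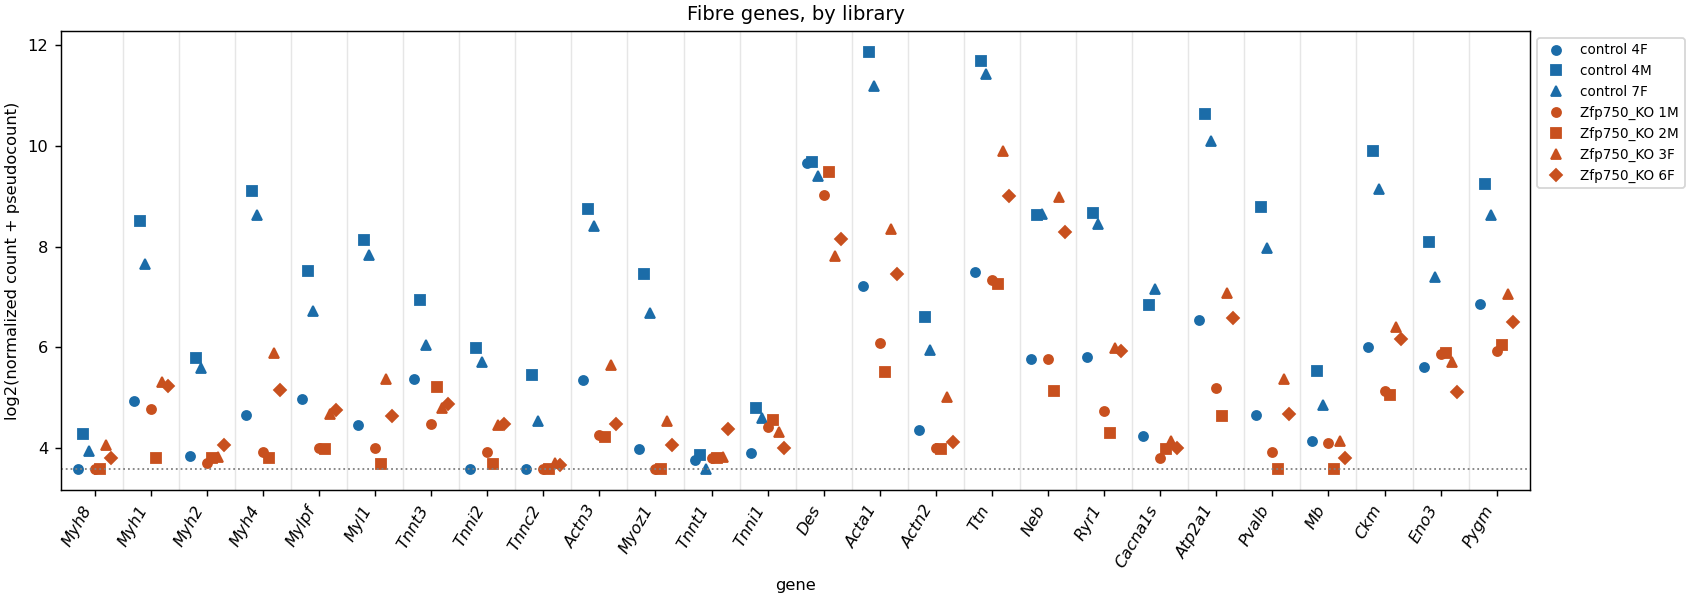
Fibre genes other than Actc1, with log2 of normalized count plus the pseudocount on the vertical axis and 1 point per library, blue for control and orange for Zfp750_KO. For most genes control 4M and 7F stand above the other 5 libraries and control 4F sits among Zfp750_KO, as for Acta1 at 138 against 3711 and 2316.

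Levels per kb of exon and per M of the library total allow genes to be compared with each other. Averaged over the 7 libraries, Acta1 stood highest of the 39 at 53.9, followed by Des at 12.3, Atp2a1 at 10.6, Pvalb at 8.62 and Ckm at 7.24, and Myog at 2.64 led the progenitor genes. The order depended on the library. In control 4F Des was at 16, Acta1 at 6.79 and Myog at 4.39 per kb per M, and in control 4M Acta1 was at 202, Des at 17.9 and Myog at 6.33. Pax7 and Myod1 averaged 0.688 and 1.09 per kb per M, below Acta1, Des, Atp2a1, Pvalb and Ckm.

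Of the 39 genes, 27 reached 1 per M of the library total in at least 3 libraries and could be tested: 7 progenitor genes, 1 receptor subunit and 19 fibre genes. For 12 of these 27 the threshold was reached only with the help of control libraries, so their being lower in Zfp750_KO is partly a condition of entry. Myod1, Mymk and Actc1 had no Zfp750_KO library at 1 per M and passed through the controls alone, so that they had to be lower. In limma with the group as its only term, 0 of 18141 genes (0%) had an adjusted p under 0.05, and 1058 had an unadjusted p under 0.05. The lowest adjusted p among the 27 was 0.104, reached by Myog at a log2 difference of -2.68 ± 0.34 (SE) and by Actc1 at -2.15 ± 0.28. At an unadjusted p under 0.05, 24 of the 27 were lower in Zfp750_KO, where 3.65% of all tested genes were. Their median log2 difference was -1.86, beside 0.02 over all tested genes.

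A further limma fit held the macrophage score, the mean log2 level of the 21 macrophage and monocyte markers, as a covariate. It assumes the same slope on the score in both groups, which was not tested. The mean level of the tested fibre genes was 5.77 in control 4F against 8.76 in 4M and 8.22 in 7F. In Zfp750_KO it was 5.03 in 1M and 4.88 in 2M against 6.21 in 3F and 5.77 in 6F. A fitted fibre difference thus averages a wider gap in the leukocyte-rich libraries and a narrower one in the leukocyte-poor, where 4F is the only control. In it 19 of the 27 genes fell and 0 rose at an adjusted p under 0.05, where 2.12% of all tested genes were lower and 1.29% higher. These were 5 of 7 progenitor genes and 14 of 19 fibre genes, and included 9 of the 15 genes that entered without help from control libraries. The other 10 calls were among the 12 genes that needed control libraries to enter, so that their fall is partly a condition of entry. The median difference was -1.62 over the tested progenitor genes, -2.21 over the tested fibre genes and 0.02 over all tested genes.

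Among the progenitor genes Myog fell by 2.72 ± 0.26 (log2, with SE; adjusted p = 0.0034), Cdh15 by 1.84 ± 0.26 (adjusted p = 0.0076) and Myod1 by 1.83 ± 0.26 (adjusted p = 0.0085). Pax7 fell by 1.39 ± 0.20 (adjusted p = 0.0081) and Mymk by 1.23 ± 0.21 (adjusted p = 0.017). Myod1 and Mymk had entered through the controls alone and so had to be lower, and their p-values add no support. Log2 differences on this scale understate the change of low genes such as Mymk. Megf10 at -1.62 ± 0.38 (adjusted p = 0.056) and Myf5 at -0.77 ± 0.31 (adjusted p = 0.24) did not pass. Chrna1 was at -0.07 ± 0.45 (adjusted p = 0.97).

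Among the fibre genes Acta1 fell by 3.43 ± 0.38 (SE, adjusted p = 0.0035), Atp2a1 by 3.38 ± 0.33 (adjusted p = 0.0034), Ryr1 by 2.52 ± 0.26 (adjusted p = 0.0035) and Actc1 by 2.17 ± 0.24 (adjusted p = 0.0035). Actc1 had entered through the controls alone and so had to be lower, and its p-value adds no support. Actn3 fell by 2.96, Myh4 by 2.94, Pvalb by 2.90, Ckm by 2.79, Myl1 by 2.51, Myh1 by 2.37 and Ttn by 2.01, with adjusted p-values between 0.0085 and 0.020. The other 3 that fell were Myoz1, Mylpf and the glycogen phosphorylase Pygm. Tnnt3, Eno3, Des, Actn2 and Neb did not pass, with Des at -0.91 ± 0.25 (adjusted p = 0.094) and Neb at -0.82 ± 0.23 (adjusted p = 0.089).

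**Figure D4:**
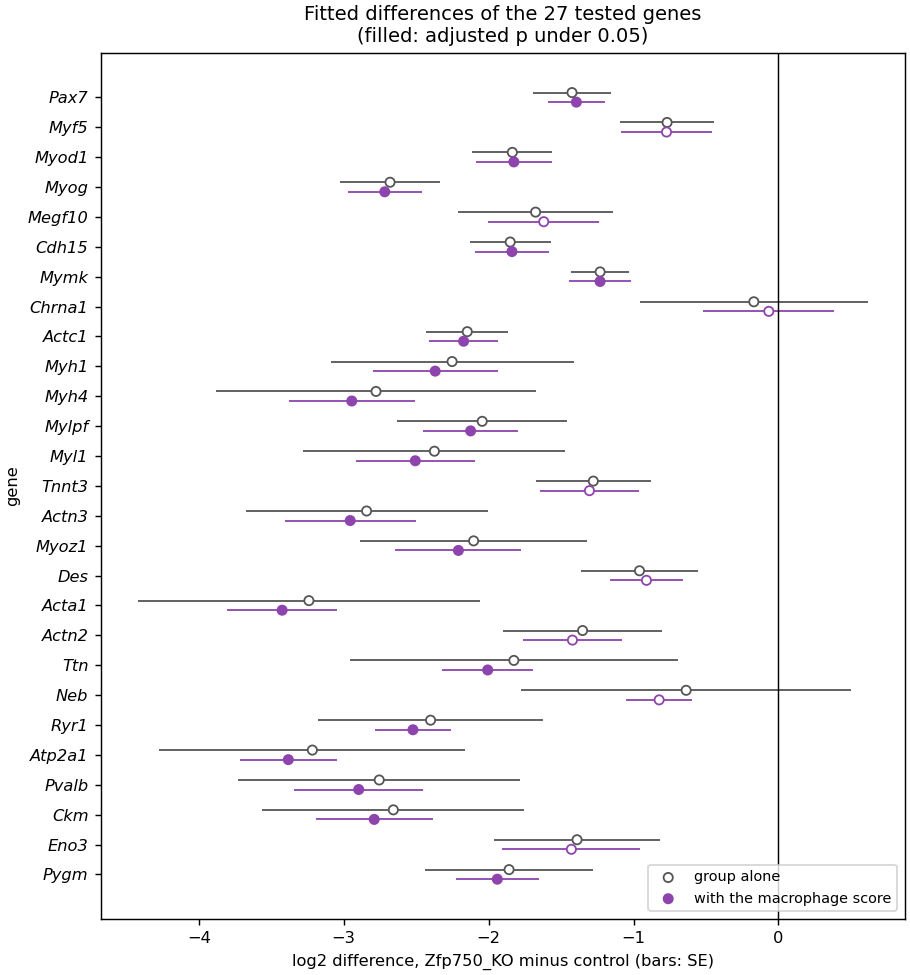
Log2 difference between Zfp750_KO and control, with its SE, for the 27 tested genes in the limma fit with the group alone (grey) and with the macrophage score (purple), filled where the adjusted p is under 0.05. No grey point is filled, and 19 purple ones are, with Acta1 at -3.43 farthest from 0 and Chrna1 at -0.07 nearest.

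These calls rest on few libraries. Without control 4M, 7 of 22 tested genes fell, where 0.51% of all tested genes did, and without control 7F 5 of 21, against 0.602%. Without control 4F 21 of 23 fell, against 5.62%. Acta1, Atp2a1, Cdh15, Myog and Ryr1 passed without each of the 7 libraries in turn, and 10 of the 19, among them Pax7, lost the call without control 4M or 7F. Actc1, Myod1, Mymk and Myoz1 reached the filter in only 4 of the 7 such fits. Of these, Mymk lost the call without Zfp750_KO 2M and Myoz1 without Zfp750_KO 6F. Within the 4 leukocyte-rich libraries alone, controls 4M and 7F against Zfp750_KO 3F and 6F, limma with the group term gave 22 of 23 tested genes lower, where 7.01% of 17214 genes were. There Myog was at -2.38 (adjusted p = 0.0012), Pax7 at -1.53 (adjusted p = 0.0099), Acta1 at -3.63 (adjusted p = 5.5e-05) and Chrna1 at -1.34 (adjusted p = 0.039), and Neb, at 0.00, was the gene not lower. In the same fit 13 of 15 fibroblast markers were lower and 0 higher, with Col1a1 at -2.35, and 13 of 21 macrophage and monocyte markers were higher and 2 lower, and their part in the muscle gene values was not tested. Without control 4M as well, control 7F alone against Zfp750_KO 3F and 6F gave 15 of 17 tested genes lower, where 2.3% of all tested genes were; the lone control is assumed to vary like the knockouts. The 3 leukocyte-poor libraries, control 4F against Zfp750_KO 1M and 2M, include a single control and were not tested.

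Progenitor and fibre genes differed in how they varied. Whether they differed in the size of the group difference was not tested, and depended on the control left out. Over the tested genes, the mean log2 difference was -1.64 for progenitor and -2.11 for fibre genes. The difference between the 2 classes, 0.47, is smaller than its pooled SD over libraries of 1.19. Over the same genes, leaving out control 4M gave -0.16 and leaving out control 7F gave 0.20. With the filter applied anew it was -0.22 without 4M, over 5 progenitor and 16 fibre genes, and -0.08 without 7F, over 4 and 16, so that the sign without 7F depended on which genes were tested. Without control 4F the fibre difference was -3.02 over the same genes, and the difference between the 2 classes was 1.38. After filtering anew this class difference was 1.21, beside a pooled SD of 0.79, over 4 progenitor and 18 fibre genes.

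Further genes of the same cell types, listed with earlier results known, were read in both fits. Of 19 other satellite cell and neuromuscular junction genes 17 were tested, and 2 fell with the macrophage score, 0 rose and 15 did not pass, beside the 2.12% of all tested genes that fell. Of these 17 differences 13 were negative and 4 positive, the highest being Chodl at 0.94 (adjusted p = 0.61). Chodl had 144, 73.5 and 125 in controls and 951, 1091, 18.0 and 46.1 in Zfp750_KO. Calcr, the calcitonin receptor of quiescent satellite cells, had 29.4, 26.3 and 39.4 in controls and 4.16, 9.66, 1.13 and 2.75 in Zfp750_KO, and fell by 1.42 (adjusted p = 0.017). Calcr had entered through the controls alone and so had to be lower, and its p-value adds no support. Of 50 other fibre genes 33 were tested, and 11 fell, 0 rose and 22 did not pass, beside the same 2.12%. The 4 largest were the myosin-binding protein Mybpc2 at -2.68, Xirp2 at -2.48, the calcium store protein Casq1 at -2.27 and the kinase Mylk4 at -2.21. For 15 of the 33, these 4 among them, the threshold was reached only with the help of control libraries. That these 15 were lower in Zfp750_KO is thus partly a condition of entry. Mylk2, among the 11 that fell, entered through the controls alone and had to be lower. With the group term alone 0 genes of either list passed, with medians of -0.58 and -0.81.

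Mylk4 had 32.5, 89.3 and 79.9 in controls and 1.13 to 13.8 in Zfp750_KO, with no overlap. Mybpc2, with overlap, had 14.7 in control 4F against 303 and 179 in 4M and 7F, and 1.93 to 16.5 in Zfp750_KO. On the smooth muscle and pericyte list 6 of 16 rose in the macrophage score fit, 0 fell and 10 did not pass, where 1.29% of all tested genes rose. The 6 were Tagln, Acta2, Actg2, Cnn1, Myh11 and Mylk. Of the 16 differences 12 were positive and 4 negative, and with the group term alone 0 of the 16 passed. Tagln, a contractile protein of smooth muscle, rose by 2.20, with 799, 123 and 93.3 in the controls and 2375, 2218, 321 and 409 in Zfp750_KO.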

How the data were processed

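Cells sorted from mouse skin were profiled by bulk RNA-seq. The submitters' processing notes name TopHat2 2.1.0 and Partek 9.0.20.0202 for the processing. Which build, annotation and strand setting were used is not given in the sources used here. What the authors deposited are normalized counts, used here as a signal and not as raw counts, per the file headers. Tested on the deposited values, 78.0% to 79.5% were whole multiples of 1 step per library, within 0.02 reads, so reads were only partly recovered and no count test was run. Of the 39 listed genes 30 gave whole reads in all 7 libraries.

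Columns name a group but no sample title, so they carry no replicate number. Values were analysed as log2(value + 11.9), 1 per M of the median column total, for genes at 1 per M or more in at least 3 libraries. limma 3.58.1 in R 4.3.3 (lmFit, eBayes with trend) was fitted to the whole table, with Benjamini-Hochberg adjustment over all tested genes at 0.05, first with the group alone and then with the macrophage score; both are two-sided. Both limma fits were run on simulated data without leukocyte-rich and leukocyte-poor libraries, which cannot show how the macrophage score fit behaves in these libraries. Single genes were also compared by exact permutation. Exon lengths come from GENCODE M21 by gene identifier (39 of 39 matched).

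The genes and lists were chosen with earlier results of these data known. Genes named with values are, per role, up to 4 that passed in either fit with the largest differences, or else the 2 with the highest means, and always Myog, Pax7, Acta1 and Myh4. In the list of other satellite cell genes, 1 gene that this rule names is not reported here. Further genes named with values (Myf5, Myf6, Megf10, Mymx, Chrnd, Myh8, Mylpf, Tnnt3, Des, Neb, Cacna1s, Pygm, Eno3, Mb, Chodl and Tagln) were chosen after their values were seen. The alternatives changed the pseudocount, the filter, the scaling or the moderation, added a sex or fibroblast term, or left out libraries.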

Additional observations from a re-analysis of the deposited data

Results flagged for a closer look

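In each gene the highest and the lowest of the 4 Zfp750_KO libraries were compared with their nearest neighbour, as a share of the range; a library stands apart where this exceeds Dixon's critical value, which chance gives in about 1 in 20 groups. Of 39 genes 2 met this. Tnnt1, the slow skeletal troponin T, had 8.95 in Zfp750_KO 6F against 1.93 to 2.25 in the other 3, a share of 0.944, and these are 13 reads against 2 in each. Actn2, an alpha-actinin of the Z-disc, had 20.3 in Zfp750_KO 3F against 3.86 to 5.51, a share of 0.861.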

How the results depend on the processing

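Of the 27 tested genes 0 passed with the group alone, and this count became 6 with a fibroblast score as a covariate 22 without the 3 leukocyte-poor libraries and 15, of 17 tested, without these and control 4M, an alternative chosen after seeing the data. With the macrophage score the 19 calls became 8 with a filter of 5 per M, where 11 genes were tested, 2 without the 3 leukocyte-poor libraries, where 4 libraries carry 3 terms, and 5 to 21 without 1 library. The progenitor difference of -1.64 was -2.34 with 0.25 times the pseudocount, -0.89 with 4 times the pseudocount, -1.32 with no filter, -1.91 with a filter of 5 per M -2.04 without the 3 leukocyte-poor libraries and -2.22 without these and control 4M, where 2 progenitor genes were tested, and -1.87 to -1.56 without 1 library. No result among those recomputed reversed a call. Acta1 kept the call with the macrophage score in every alternative fitted with that score, and Myoz1 lost it with 4 times the pseudocount. No paired analysis was possible because the columns of the table carry none of the labels' replicate numbers. Depth limits the genes at 0 to 3 reads, such as Mymx, for which no difference can be read.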
